A study of Mus musculus with 18 samples.

Results

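The genes described here are 41 mouse genes that carry out mitosis: cyclins, mitotic kinases, spindle checkpoint and kinetochore proteins, spindle motors, cytokinesis factors and condensin subunits, with the proliferation markers Mki67 and Top2a. They were taken by symbol from a list of names, not by a rule on their measured values. The list was chosen with earlier results of these data known. All 41 were found among the 51290 genes of the table. RNA from 18 samples was sequenced after poly(A) selection, in 3 groups of 6. Normal nerve was trigeminal nerve of genotype Nf1 flox/flox PostnCre-, which has floxed Nf1 and no Cre recombinase. Plexiform neurofibroma, a benign nerve tumour, was trigeminal nerve of genotype Nf1 flox/flox PostnCre+, in which Cre is driven by the promoter of Postn, a matrix protein gene. The malignant peripheral nerve sheath tumours (MPNST) came from 6 PostnCre+ mice in which both genes were floxed (Nf1 flox/flox and Arf flox/flox). Floxed Nf1, which encodes a negative regulator of RAS, was thus common to all 18 samples. Floxed Arf, a tumour suppressor made from the Cdkn2a locus, was particular to the MPNST by label. The labels give no age for any group and no body site for the MPNST. By label the nerve and neurofibroma samples were taken from an earlier series while the MPNST were made for this one, so tumour type and source series cannot be told apart in either comparison with MPNST. Nothing in the labels says that the 12 benign samples came from separate animals, so p-values measure the spread between samples.

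Most cells in an adult nerve do not divide, and the genes of mitosis are switched on together in the late part of the cell cycle. Cyclin B with CDK1 starts mitosis, kinetochores attach chromosomes to the spindle, and the spindle checkpoint holds the anaphase-promoting complex until every chromosome is attached. Securin and cyclin B are then destroyed, separase cuts cohesin, and the cell divides in cytokinesis. Many of these genes are held silent in resting cells by the DREAM complex and activated by the MuvB core with B-MYB and FOXM1, through a promoter element called the CHR and neighbouring CCAAT boxes bound by NF-Y.

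Total estimated counts were 14303986 to 20335697 per library in nerve, 15307987 to 20056513 in neurofibroma and, in MPNST, 13886399 to 23652959. Levels are given as CPM, each count scaled to its library's total. Nf1 stood at 82.4 to 160.7 CPM in nerve, 66.7 to 91.3 in neurofibroma and, in MPNST, 28.1 to 122.8 with the highest value in the library labelled MPNST 6. Cdkn2a, whose locus encodes Arf, stood at 0.280 to 3.01 CPM in nerve and 3.54 to 8.58 in neurofibroma, and in MPNST at 692 in MPNST 4 and 0.314 to 11.3 in the other 5. A count over the whole gene can miss the deletion of single exons, so neither is a check of genotype. Sensory neuron markers (8 of 8 found) summed to 5062 to 9723 CPM in nerve and 6427 to 8475 in neurofibroma. In MPNST they summed to 2992 in the library labelled MPNST 6 and 2.28 to 79.3 in the other 5. Schwann cell markers (6 of 6 found) summed to 4161 to 11540, 9587 to 17300 and 46.6 to 1511 CPM in the same order. Several libraries held transcripts of other tissues. MPNST 2 held salivary gland markers at a mean log2(CPM + 1) of 12.55, MPNST 3 skeletal muscle markers at 12.74, and the library labelled MPNST 6 sympathoadrenal and pancreatic acinar markers at 9.04 and 9.01. Lower levels stood in other libraries: skeletal muscle markers at 7.98 in neurofibroma 1 and 6.18 in nerve 3, and adipocyte markers at 5.83 in neurofibroma 1, 5.99 in MPNST 1 and 5.02 in MPNST 5. The salivary markers (4 of 5 found) summed to 279100 CPM in MPNST 2, whose TMM factor, the scaling of library size used in the fits, was 0.406, against 0.960 to 1.14 in the other 5 MPNST. Levels in CPM are not scaled by this factor. MPNST 2 was above every neurofibroma for 2 of the 41 genes in CPM and for 17 with TMM-scaled sizes. The counts over the 41 genes and over the other gene lists in MPNST are also given without MPNST 2, 3 and 6.

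The promoters of the genes shared sequence features that their choice by name had not used. RefSeq promoter windows of 300 bases (250 before and 50 after the start site, build GRCm38.p6) were at hand for 33 of the 41 genes, as 35 windows, and were searched on both strands. The CHR sequence TTTGAA lay in 28 of 35 windows (80%), against 17.9% of all 32851 windows of that length and 12.1% of 33 windows of G1/S and DNA replication genes. CCAAT lay in 77.1% of the members' windows, 37.4% of all windows and 63.6% of the replication windows. Both together were found in 68.6%, 6.95% and 9.09%. TTTAAA, a variant of the CHR, was found in 25.7%, 13.2% and 15.2%. The matches were also close to the start site: the first base of a TTTGAA lay within 50 bases of it in 74.3% of the members' windows, 4.94% of all windows and 6.06% of the replication windows, a distance chosen after the positions had been seen. A match is a description of the letters and not a binding site.

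**Figure D1:**
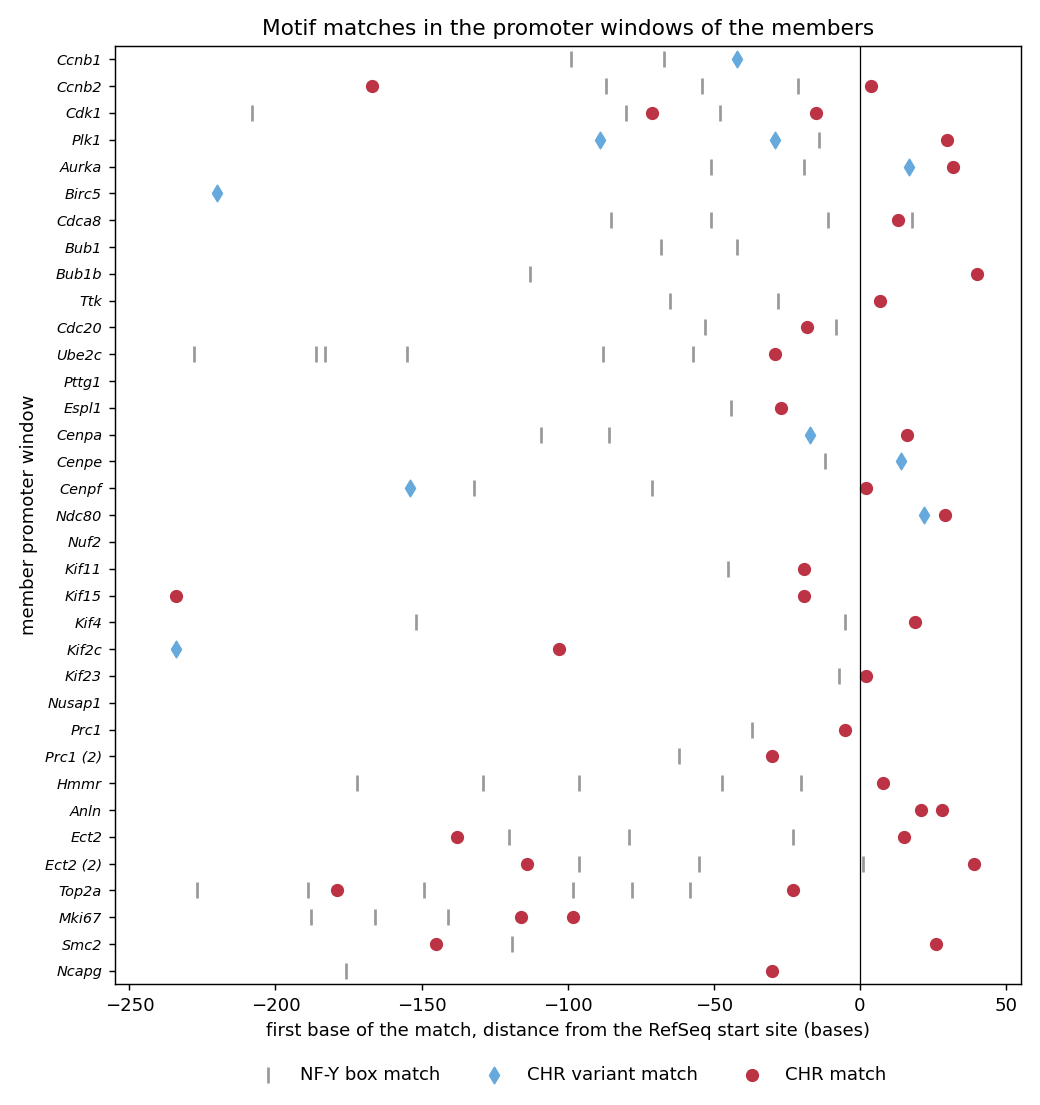
Positions of motif matches in the 35 RefSeq promoter windows of 33 mitosis and spindle genes, plotted as the distance in bases of the first base of each match from the start site. Circles mark the CHR, diamonds its variant and grey bars the NF-Y box; circles gather around the start site, and the rows of Pttg1, Nuf2 and Nusap1 are empty.

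Windows of 8 genes that hold both motifs are printed to show where the shared letters stand: those of cyclin B2, its kinase CDK1, the kinases PLK1 and Aurora A, the passenger subunit borealin (Cdca8), the checkpoint kinases BUBR1 (Bub1b) and MPS1 (Ttk) and the anaphase activator CDC20. The windows are Ccnb2 at chr9:70421505-70421804 (minus strand), Cdk1 at chr10:69352863-69353162 (minus strand), Plk1 at chr7:122159185-122159484 (plus strand) and Aurka at chr2:172370521-172370820 (minus strand). The others are Cdca8 at chr4:124936868-124937167 (minus strand), Bub1b at chr2:118597961-118598260 (plus strand), Ttk at chr9:83834439-83834738 (plus strand) and Cdc20 at chr4:118437294-118437593 (minus strand). Each runs 5′ to 3′ on the gene's strand, and capitals mark TTTGAA and CCAAT or their reverse complements TTCAAA and ATTGG. In Cdca8 the CHR overlaps an ATTGG.
Ccnb2: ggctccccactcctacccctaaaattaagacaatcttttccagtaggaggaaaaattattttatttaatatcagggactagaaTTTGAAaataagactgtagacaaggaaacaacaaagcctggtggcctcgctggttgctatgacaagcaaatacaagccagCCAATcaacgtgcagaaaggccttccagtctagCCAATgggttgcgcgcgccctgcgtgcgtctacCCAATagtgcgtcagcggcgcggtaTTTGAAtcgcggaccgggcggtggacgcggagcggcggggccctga
Cdk1: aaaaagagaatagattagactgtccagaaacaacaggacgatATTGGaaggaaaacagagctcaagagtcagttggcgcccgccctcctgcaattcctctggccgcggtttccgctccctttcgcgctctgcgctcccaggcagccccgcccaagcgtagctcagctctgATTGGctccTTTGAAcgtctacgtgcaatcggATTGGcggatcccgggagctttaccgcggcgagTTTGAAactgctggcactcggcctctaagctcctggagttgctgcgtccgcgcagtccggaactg
Plk1: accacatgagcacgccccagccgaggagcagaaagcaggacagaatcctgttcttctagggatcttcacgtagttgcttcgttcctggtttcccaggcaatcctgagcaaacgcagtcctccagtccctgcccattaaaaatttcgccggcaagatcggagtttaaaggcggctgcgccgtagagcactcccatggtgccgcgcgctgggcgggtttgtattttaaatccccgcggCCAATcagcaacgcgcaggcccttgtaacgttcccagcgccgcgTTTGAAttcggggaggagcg
Aurka: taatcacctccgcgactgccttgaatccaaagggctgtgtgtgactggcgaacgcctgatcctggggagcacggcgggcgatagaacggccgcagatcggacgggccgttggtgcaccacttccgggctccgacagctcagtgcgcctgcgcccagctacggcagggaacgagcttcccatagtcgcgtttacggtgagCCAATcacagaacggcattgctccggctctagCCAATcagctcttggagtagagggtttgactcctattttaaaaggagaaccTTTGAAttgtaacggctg
Cdca8: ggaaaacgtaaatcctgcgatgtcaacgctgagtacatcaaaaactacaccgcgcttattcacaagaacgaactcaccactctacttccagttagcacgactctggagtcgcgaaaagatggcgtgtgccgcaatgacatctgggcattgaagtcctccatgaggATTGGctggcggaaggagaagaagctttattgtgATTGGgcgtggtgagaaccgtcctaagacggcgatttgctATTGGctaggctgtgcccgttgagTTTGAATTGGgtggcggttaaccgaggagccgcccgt
Bub1b: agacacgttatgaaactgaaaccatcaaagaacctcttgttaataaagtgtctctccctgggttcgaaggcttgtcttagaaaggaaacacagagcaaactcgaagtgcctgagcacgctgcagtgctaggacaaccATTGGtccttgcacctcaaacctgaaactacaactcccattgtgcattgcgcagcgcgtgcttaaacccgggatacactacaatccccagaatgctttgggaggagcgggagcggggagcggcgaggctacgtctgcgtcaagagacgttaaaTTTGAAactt
Ttk: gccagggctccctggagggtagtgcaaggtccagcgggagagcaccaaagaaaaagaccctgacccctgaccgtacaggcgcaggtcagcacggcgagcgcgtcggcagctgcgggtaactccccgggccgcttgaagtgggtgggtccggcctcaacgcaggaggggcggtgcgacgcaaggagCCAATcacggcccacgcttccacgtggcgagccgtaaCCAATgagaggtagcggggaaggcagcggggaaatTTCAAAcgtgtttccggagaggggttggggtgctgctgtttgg
Cdc20: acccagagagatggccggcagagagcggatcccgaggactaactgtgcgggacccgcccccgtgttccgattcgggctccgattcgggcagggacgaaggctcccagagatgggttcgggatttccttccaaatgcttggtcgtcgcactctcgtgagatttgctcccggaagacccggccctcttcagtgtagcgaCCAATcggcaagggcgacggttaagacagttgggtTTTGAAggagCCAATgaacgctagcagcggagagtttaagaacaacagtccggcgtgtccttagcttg
In each of the 8 sequences a CHR stands near the end of the window, within 50 bases of the start site, and 1 or more CCAAT boxes stand before it. Windows of 7 genes held no TTTGAA. Of these Ccnb1, Birc5 and Cenpe held TTTAAA, Bub1 held CCAAT alone, and Pttg1, Nuf2 and Nusap1 held none of the 3 motifs. Absence says only that these letters are not in this window.

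The first question the design puts is how far the mitotic genes differ between a benign neurofibroma and normal nerve. Of the 36 genes that passed the filter on low counts, Smc4, a subunit of the condensin complexes that compact chromosomes, rose (log2 change 0.60, standard error (SE) 0.145, adjusted p = 0.0192, edgeR), and 35 were not called. Among all 16464 genes tested 7.94% were called higher and 6.00% lower. Ccnb2, Aurkb, Bub1, Kif2c and Dlgap5 did not pass the filter. The median log2 change of the 36 was 0.19, beside -0.02 over all genes tested. At an unadjusted p below 0.05, 9 of the 36 were higher and 0 lower, beside 2634 higher and 2581 lower of all 16464 genes tested. After adjustment, 0 of the mitosis genes were called lower by edgeR, DESeq2 or limma-voom.

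Smc4 ran from 35.6 to 54.0 CPM in nerve (median 44.0) and from 44.8 to 83.0 in neurofibroma (median 69.1). The groups overlapped: neurofibroma 1 lay inside the nerve range and the other 5 neurofibromas above it. Those 9 genes included the other condensin subunits Smc2 (0.59, SE 0.197, adjusted p = 0.062) and Ncapg (1.20, SE 0.438, adjusted p = 0.0821). Cenpf, a kinetochore protein of G2 and mitosis, had the largest value (1.99, SE 0.716, adjusted p = 0.079), with 0.148 to 3.22 CPM in nerve and 0.525 to 10.3 in neurofibroma. The kinetochore motor gene Cenpe stood at 0.89 (SE 0.308, adjusted p = 0.0693) and the chromokinesin gene Kif4 at 0.93 (SE 0.365, adjusted p = 0.102). Without neurofibroma 1, Kif4 stood at 0.49 (adjusted p = 0.227, edgeR). Top2a, Ccna2 and Cdc20 completed the 9, at 1.03, 0.72 and 0.51. The lowest of the 36 was Ndc80 (-0.70, SE 0.418, adjusted p = 0.272), part of the microtubule-binding kinetochore complex. Without nerve 6, Ndc80 stood at -0.20 (adjusted p = 0.678, edgeR). The count of 1 called gene was 2 without nerve 3 (adding Mki67) or nerve 6 (adding Smc2), 3 without neurofibroma 5 (adding Cenpe and Cenpf), 4 with DESeq2 and 0 in 1 edgeR fit of all libraries, where Smc4 had an adjusted p of 0.797; without neurofibroma 1 it was 1. Of the 246 values of the 41 genes in each benign group, 49 in nerve and 24 in neurofibroma were under 10 counts.

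MPNST stood apart from both. Against neurofibroma, 39 of the 41 genes rose, and 0 fell by edgeR, by DESeq2 or by limma-voom (0 lower also at an unadjusted p below 0.05). Over all 16537 genes tested 25.3% were called higher and 16.8% lower (4176 and 2772 genes, beside 2653 and 2683 when counts were scaled by library totals alone). The median log2 change of the 41 genes was 3.78, beside 0.22 over all genes, and the single values ran from 1.22 to 5.81. Pttg1 and Anln were not called. Against nerve, 37 of the 39 genes tested rose (median 3.85), where 27.6% of all genes were called higher and 18.4% lower; the same 2 genes were not called, and Aurkb and Kif2c did not pass the filter. The 2 comparisons share the MPNST samples. Without MPNST 2, 3 and 6, 40 of 41 genes rose in each (32.0% of all genes higher against neurofibroma and 31.5% against nerve), Pttg1 being the exception, with medians of 3.52 and 3.90. Some genes were tested only through their high group. Ccnb2, Aurkb, Bub1, Kif2c and Dlgap5 did not pass the filter among the benign libraries and passed it with MPNST libraries present. Against nerve, Aurkb and Kif2c passed when MPNST 2, 3 and 6 were left out, and all 41 genes also passed without MPNST 2 alone. Whether more cells were dividing or each cell held more of these transcripts cannot be told apart in bulk RNA.

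**Figure D2:**
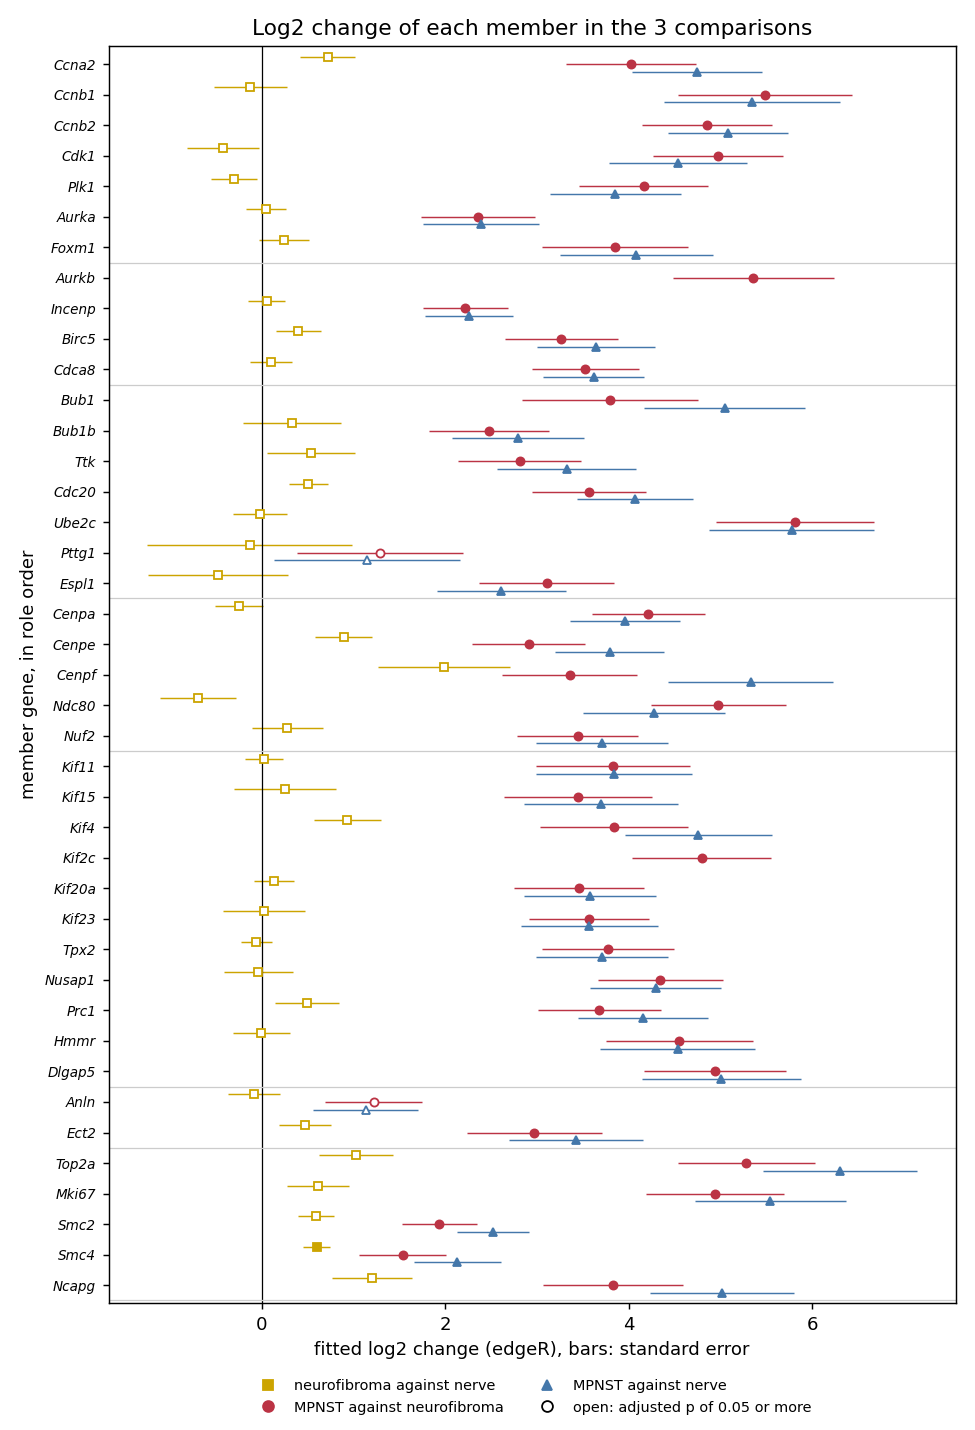
Fitted log2 change of each of the 41 genes, with its standard error, in neurofibroma against nerve (squares), MPNST against neurofibroma (circles) and MPNST against nerve (triangles); filled symbols passed an adjusted p of 0.05. Squares lie around 0 with Smc4 filled, and circles and triangles lie above 1 with Pttg1 and Anln open.

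Among the 7 genes that drive entry into mitosis all rose in MPNST against neurofibroma, with a median log2 change of 4.16. Ccna2, the cyclin of S phase and G2, ran from 0.946 to 2.49 CPM in nerve (median 1.79), from 1.64 to 4.49 in neurofibroma (2.73) and, in MPNST, from 1.90 to 145.5 (32.5). Its log2 change was 4.03 against neurofibroma (SE 0.709, adjusted p = 0.00111) and 4.74 against nerve. Ccnb1, the cyclin that activates CDK1 at mitotic entry, stood at 0.344 to 1.78 CPM in nerve (median 0.790), 0.358 to 1.39 in neurofibroma (0.651) and, in MPNST, 0.676 to 125.5 (13.5). In CPM, MPNST 2 lay within the neurofibroma range for both cyclins, and the other 5 MPNST lay above every benign library. With TMM-scaled sizes MPNST 2 was above every neurofibroma for both, at 4.684 and 1.665. Ccnb1 rose by 5.48 (SE 0.949, adjusted p = 0.00101), and its partner kinase gene Cdk1 by 4.97 (SE 0.708). Ccnb2 rose by 4.85 and Plk1, a kinase needed for spindle assembly and cytokinesis, by 4.16. Foxm1, the transcription factor that switches on many of these genes, rose by 3.85 (SE 0.796). Aurka, the centrosome and spindle kinase, had the smallest change of the 7 (2.36, SE 0.618, adjusted p = 0.00982), and its MPNST 1 and 3 values, 4.45 and 4.70 CPM, were close above the highest neurofibroma (3.14).

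**Figure D3:**
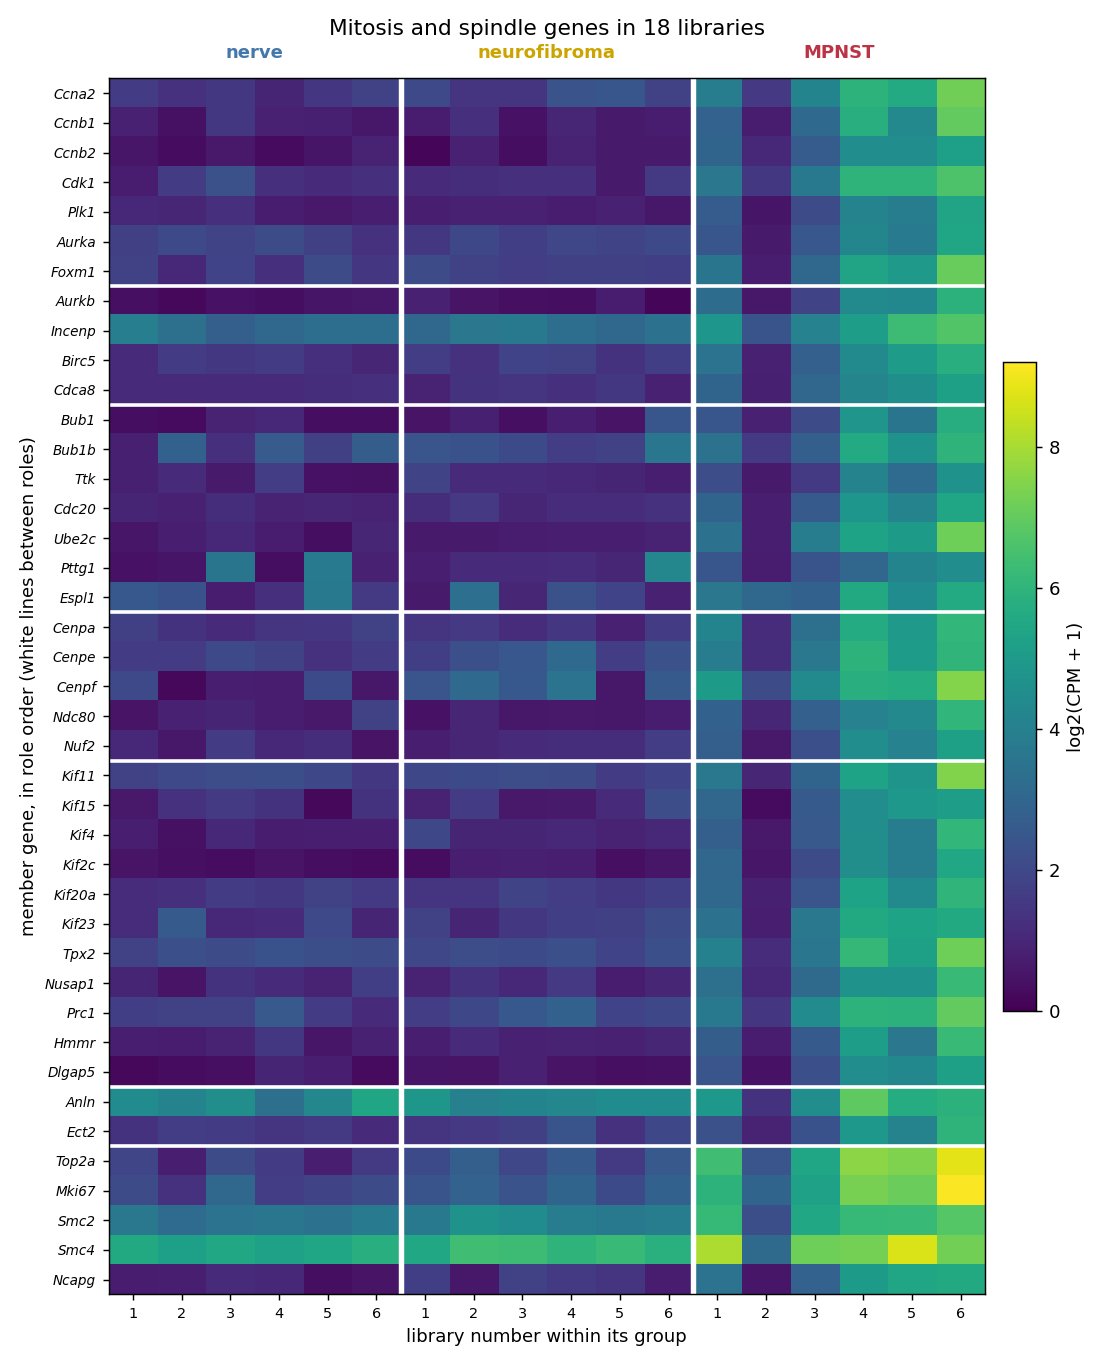
Levels of the 41 genes (rows, grouped by role) in the 18 libraries (columns), as log2(CPM + 1). The MPNST columns 4, 5 and 6 are bright for nearly every gene and 1 and 3 intermediate, while MPNST 2 is as dark as the benign columns; Anln, Smc2, Smc4 and Incenp are not dark in the benign columns.

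The chromosomal passenger complex corrects wrong attachments of chromosomes to the spindle, and its 4 genes rose. Aurkb, its kinase, was at 0.148 to 0.524 CPM in nerve (median 0.331), 0.131 to 0.798 in neurofibroma (0.355) and, in MPNST, 0.507 to 59.8 (13.7). MPNST 2 lay inside the neurofibroma range, MPNST 3 at 2.67 CPM, and the other 4 at 8.56 CPM or more. With TMM-scaled sizes MPNST 2 stood at 1.249, above every neurofibroma (at most 0.795). The change was 5.36 (SE 0.879, adjusted p = 0.000742). Incenp, the scaffold of the complex, stood at 5.82 to 14.1 CPM in nerve (median 8.99), 7.33 to 12.3 in neurofibroma (9.48) and, in MPNST, 4.27 to 103.5 (30.7). All 4 genes had reads in every benign library, and Incenp had the highest benign means of the 4, 9.181 CPM in nerve and 9.575 in neurofibroma. It rose by 2.22 (SE 0.463, adjusted p = 0.00298), the smallest change of the 4. Birc5 (survivin) rose by 3.26 and Cdca8 (borealin) by 3.53. The subunits of this complex thus differed in the size of their changes, with standard errors of 0.463 to 0.879; the difference between subunits was not tested.

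Of 7 genes of the spindle checkpoint and of anaphase, 6 rose. Bub1, a checkpoint kinase at kinetochores, ran from 0.197 to 1.01 CPM in nerve (median 0.271), from 0.307 to 4.51 in neurofibroma (0.562) and, in MPNST, from 0.803 to 52.8 (7.72). Bub1b, which encodes the checkpoint inhibitor BUBR1, ran from 0.765 to 6.20 (median 3.83), from 2.20 to 11.4 (3.58) and from 1.99 to 61.9 CPM (17.2). Both had their highest benign value in neurofibroma 6. MPNST 2 was below that library in both genes, MPNST 3 in both (3.37 and 5.97 CPM) and MPNST 1 in Bub1b (9.76 CPM). Bub1 rose by 3.80 (SE 0.959, adjusted p = 0.0081) and Bub1b by 2.48 (SE 0.656, adjusted p = 0.0103). Ube2c, the ubiquitin-conjugating enzyme of the anaphase-promoting complex, had the largest change of all 41 genes (5.81, SE 0.862, adjusted p = 4e-04), from 0.577 to 0.849 CPM in neurofibroma to 0.719 to 142.5 in MPNST. Cdc20, the activator of that complex, rose by 3.57, Ttk by 2.81 and Espl1, which encodes separase, by 3.11.

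Pttg1 encodes securin, the inhibitor of separase, and its benign libraries fell into separate levels. In nerve it ran from 0.270 to 12.4 CPM (median 0.614), in neurofibroma from 0.698 to 17.96 (1.14) and in MPNST from 0.676 to 21.9 (5.89). Nerve 3 and 5 held 10.98 and 12.44 CPM and neurofibroma 6 held 17.96, while the other 9 benign libraries were at most 1.27. The 3 high benign libraries thus overlapped the MPNST range, and the log2 change was 1.29 (SE 0.903, adjusted p = 0.265). Without neurofibroma 6 it was 3.14 (adjusted p = 0.00323). Neurofibroma 6 was also the library with high Bub1 and Bub1b. Its Ccnb1 (0.653 CPM) lay within the range of the other neurofibromas, and its Aurkb (0.131) and Plk1 (0.523) lay below it. Its Cdk1 (1.96 CPM) and Cenpa (2.025) were the highest among the neurofibromas. The mean log2(CPM + 1) over the 41 genes was also highest in neurofibroma 6 among the benign libraries, at 1.87. Espl1 varied among benign libraries in another way, being highest in nerve 5 (12.2 CPM) and neurofibroma 2 (9.29).

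All 5 centromere and kinetochore genes rose. Cenpa, the histone H3 variant that marks centromeres, was at 1.19 to 2.55 CPM in nerve (median 1.69), 0.817 to 2.03 in neurofibroma (1.68) and, in MPNST, 1.23 to 66.4 (23.4). It rose by 4.21 (SE 0.613, adjusted p = 0.000354). Cenpe was at 1.47 to 3.09 CPM in nerve (median 2.06), 2.16 to 7.87 in neurofibroma (3.77) and, in MPNST, 1.31 to 63.2 (23.4). In both genes MPNST 2 lay below most benign libraries and the other 5 MPNST above all of them. With TMM-scaled sizes MPNST 2 was above every benign library in Cenpa (3.019) and inside the neurofibroma range in Cenpe (3.227). Cenpe rose by 2.91 against neurofibroma (SE 0.617, adjusted p = 0.00324) and by 3.79 against nerve. Cenpf rose by 3.35 and 5.33 in the same comparisons. Ndc80 and Nuf2, which encode partners in one microtubule-binding complex, rose by 4.98 (SE 0.735) and 3.44 (SE 0.662) against neurofibroma.

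The 11 genes of kinesin motors and spindle assembly rose without exception, and in a narrow band of log2 changes from 3.45 to 4.94. Kif11, the motor that pushes spindle poles apart, was at 1.83 to 3.65 CPM in nerve (median 3.03), 2.10 to 3.53 in neurofibroma (3.11) and, in MPNST, 0.972 to 176.7 (19.1). Kif15, which can support the bipolar spindle beside it, was at 0.140 to 1.96 (median 1.52), 0.562 to 3.46 (1.03) and 0.211 to 33.9 CPM (14.5). MPNST 2 was below every neurofibroma for both motors and the other 5 MPNST were above every benign library. With TMM-scaled sizes MPNST 2 was inside the neurofibroma range for Kif11 (2.394) and still below it for Kif15 (0.5205). Kif11 rose by 3.83 (SE 0.842, adjusted p = 0.00395) and Kif15 by 3.45 (SE 0.808, adjusted p = 0.00554). Among the motors of anaphase and the midbody, Kif20a rose by 3.46, Kif23 by 3.57 and Kif4 by 3.84, and Prc1, which bundles the midzone microtubules they act on, by 3.68. The microtubule depolymerase gene Kif2c rose by 4.79. Spindle assembly factors rose as well, Tpx2 by 3.78, Nusap1 by 4.34, Hmmr by 4.55 and Dlgap5 by 4.94.

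The 2 cytokinesis genes differed. Ect2, which activates RhoA at the cleavage furrow, ran from 1.11 to 2.16 CPM in nerve (median 1.79), from 1.46 to 4.29 in neurofibroma (2.13) and, in MPNST, from 0.888 to 62.1 (10.1). It rose by 2.97 (SE 0.740, adjusted p = 0.00752), although MPNST 1 and 3 (3.88 and 4.002 CPM) lay under neurofibroma 4. Anln encodes anillin, a scaffold of the contractile ring, and stood at 9.60 to 41.9 CPM in nerve (median 19.3), 15.2 to 28.6 in neurofibroma (19.7) and, in MPNST, 1.56 to 120.6 (39.8). Only MPNST 4, 5 and the library labelled 6 exceeded every benign library. Its log2 change was 1.22 against neurofibroma (SE 0.531, adjusted p = 0.0831) and 1.13 against nerve (SE 0.570, adjusted p = 0.121), both without a call. Without MPNST 2 it was called, at 1.46 (adjusted p = 0.00855) and 1.35 (adjusted p = 0.0249). Nerve 6, highest of the benign libraries in Anln, was also highest in oligodendrocyte and astrocyte markers (4 of 4 found, mean log2(CPM + 1) of 7.10, sums of 87.9 to 652.6 CPM in nerve, 99.96 to 403.3 in neurofibroma and, in MPNST, 1.78 to 86.8); their part in the level of Anln was not tested.

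The last group holds chromosome structure genes and the usual proliferation markers, and its 5 genes rose. Top2a, the topoisomerase that untangles chromosomes, was at 0.688 to 3.44 CPM in nerve (median 2.03), 1.93 to 5.89 in neurofibroma (4.05) and, in MPNST, 4.31 to 454.3 (125.0). Mki67, which encodes the antigen Ki-67, was at 1.48 to 7.48 (median 2.96), 3.15 to 6.71 (5.28) and 6.72 to 572.4 CPM (97.8). In Top2a MPNST 2 lay among the neurofibromas, and in Mki67 it was just above the highest of them. With TMM-scaled sizes it stood at 10.62 and 16.55, where the highest neurofibromas were at 5.553 and 6.552. Against neurofibroma Top2a rose by 5.28 (SE 0.746, adjusted p = 0.000294) and Mki67 by 4.94 (SE 0.750), and against nerve by 6.30 and 5.54. The condensin genes were graded: Ncapg, particular to condensin I, rose by 3.83 (SE 0.764), whereas the core subunits Smc2 and Smc4, which also serve outside mitosis, rose by 1.94 (SE 0.410) and 1.53 (SE 0.471, adjusted p = 0.0208). Smc4 ran from 7.99 CPM in MPNST 2 to 413 in MPNST 5. It lost its call when library totals alone scaled the counts (1.52, adjusted p = 0.0561).

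**Figure D4:**
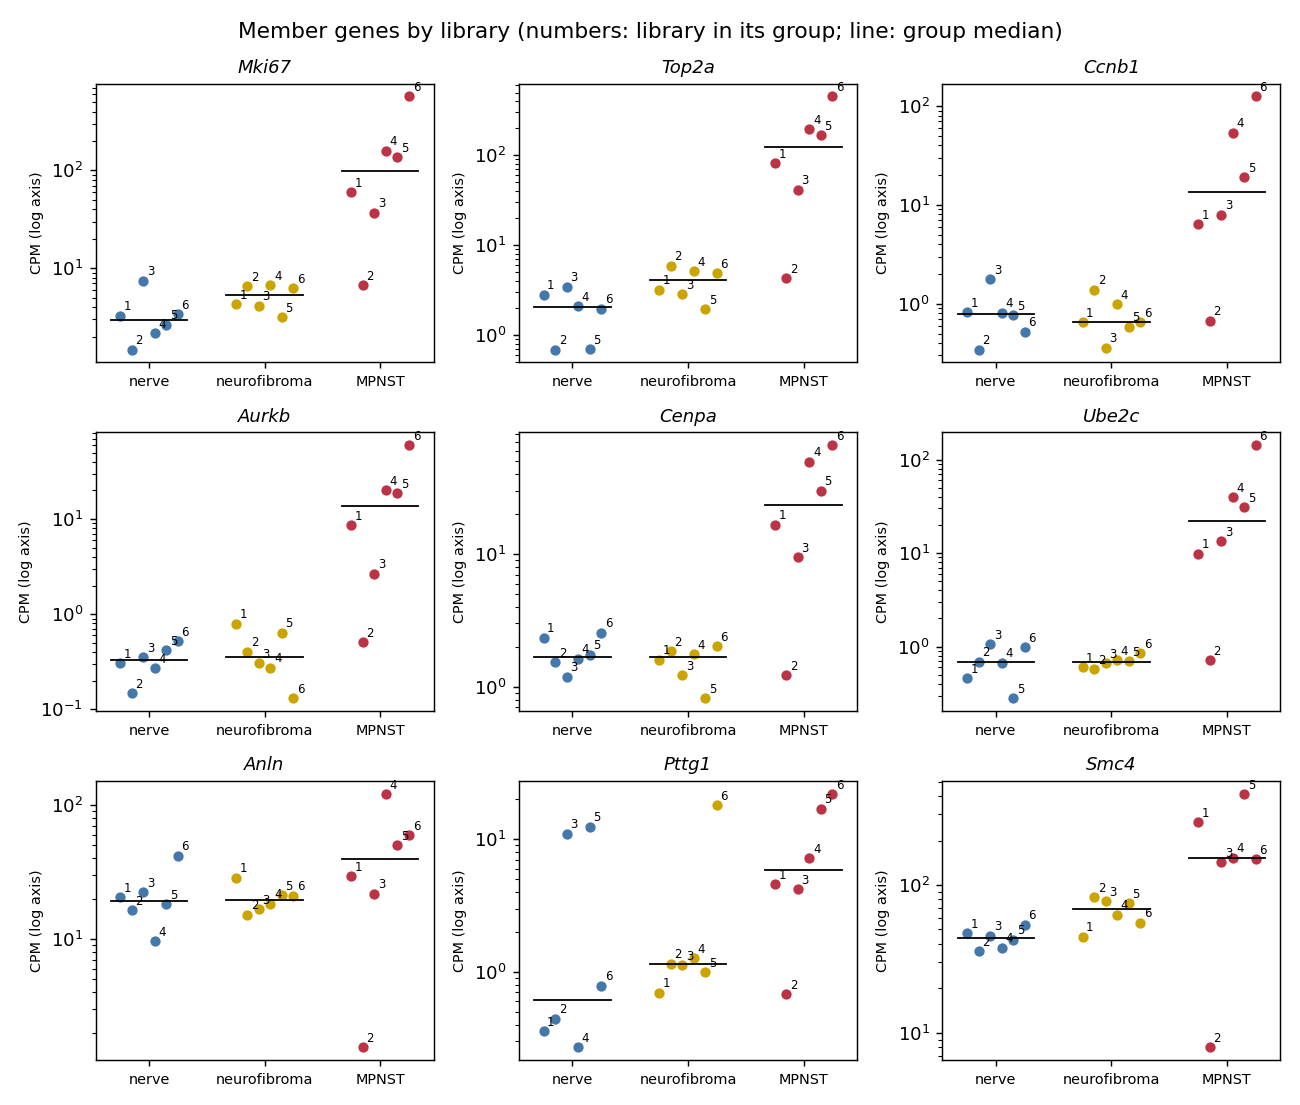
CPM of 9 genes in each library, on log axes, with library numbers beside the points and group medians as lines. MPNST 2 falls among the benign points or below them, Pttg1 has 3 high benign libraries, and Anln and Smc4 span less between groups than Mki67, Top2a or Ube2c.

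The MPNST libraries were ordered in nearly the same way gene after gene. The library labelled MPNST 6 was highest for 38 of 41 genes, MPNST 4 came next for 28, and MPNST 2 was lowest for 40. Relative to the neurofibroma mean, the median ratio over the 41 genes was 4.72 in MPNST 1, 0.488 in MPNST 2, 3.72 in MPNST 3, 19.6 in MPNST 4, 13.01 in MPNST 5 and 34.6 in the library labelled MPNST 6. With TMM-scaled sizes MPNST 2 stood at 1.25 and the others were 4.02 to 32.5. MPNST 2 was above every neurofibroma for 2 genes, Ccnb2 and Mki67, and below every one for 25 (17 and 6 with TMM scaling). The other libraries were above every neurofibroma for 34 (MPNST 3), 38 (MPNST 1), 40 (MPNST 4 and 5) and 41 genes (MPNST 6).

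Counted per gene, all 6 MPNST exceeded all neurofibromas in 2 of 41 genes, where 2.26% of all tested genes did so. For the 5 MPNST other than 2 this held in 34 of 41 genes, against 10.0% of all genes; the exceptions were Anln, Bub1, Bub1b, Ect2, Espl1, Pttg1 and Ttk. For MPNST 1, 4 and 5 alone it held in 38 of 41, against 27.6%. The library labelled MPNST 6 exceeded MPNST 4 by a median ratio of 2.09, with a range from 0.495 (Anln) to 4.49 (Kif11), and was below it for 3 genes. Spread among the 5 libraries other than 2 was smallest for Smc2 (highest over lowest 2.46) and Smc4 (2.90), and largest for Kif11 (25.7) and Aurkb (22.4). Markers of immune cells, which can be dividing, and of fibroblasts also differed between these libraries. B and plasma cell markers (6 of 6 found) summed to 2.84 to 19.2 CPM in nerve, 4.33 to 35.3 in neurofibroma and, in MPNST, 1.83 to 1935, highest in MPNST 1 and lowest in the library labelled MPNST 6. T and NK cell markers (5 of 5 found) summed to 0.270 to 3.92, 1.28 to 4.39 and 1.23 to 194.9 CPM. Macrophage markers (5 of 5 found) summed to 24.3 to 134.2, 90.6 to 192.1 and 87.8 to 1890 CPM, and their mean log2(CPM + 1) was 7.28, 7.61 and 8.14 in MPNST 1, 4 and 5, above the highest benign value of 4.94, and 4.10 in the library labelled MPNST 6. Fibroblast markers (5 of 5 found) summed to 170.0 to 1203, 1375 to 3024 and 547.4 to 10720 CPM, with means of 10.26, 9.57 and 9.49 in MPNST 1, 3 and 5 and the lowest MPNST value, 5.49, in the library labelled 6. In the library labelled MPNST 6 the B and plasma cell and the T and NK cell lists summed to 1.83 and 2.57 CPM. Its sympathoadrenal and pancreatic acinar lists summed to 3401 and 2364 CPM. The part of any of these cells in the levels of the MPNST libraries, MPNST 6 included, was not tested.

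Genes that act earlier in the cell cycle moved in the same direction, with a smaller median. Of 32 G1/S and DNA replication genes tested, 25 rose in MPNST against neurofibroma, with a median of 2.14. The thymidylate synthase gene Tyms rose by 2.67 (SE 0.264, adjusted p = 2.51e-05) and Uhrf1, needed to copy DNA methylation, by 5.23 (SE 0.683). The mean log2(CPM + 1) of the 41 mitosis genes was 1.51 ± 0.0914 in nerve (SD, n = 6, as for the other groups) and 1.71 ± 0.142 in neurofibroma, and in MPNST it was 4.07 ± 1.78. That of the 33 replication genes was 2.55 ± 0.0689, 2.68 ± 0.0679 and 4.05 ± 1.35. The mitosis mean minus the replication mean was -1.04 ± 0.103 in nerve, -0.97 ± 0.117 in neurofibroma and 0.02 ± 0.536 in MPNST. MPNST 2 (-0.86) and MPNST 1 (-0.37) stood lowest within the MPNST, and MPNST 4 highest (0.57). These means are over genes of different lengths, so the comparison lies in the change between libraries and not in the sign.

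**Figure D5:**
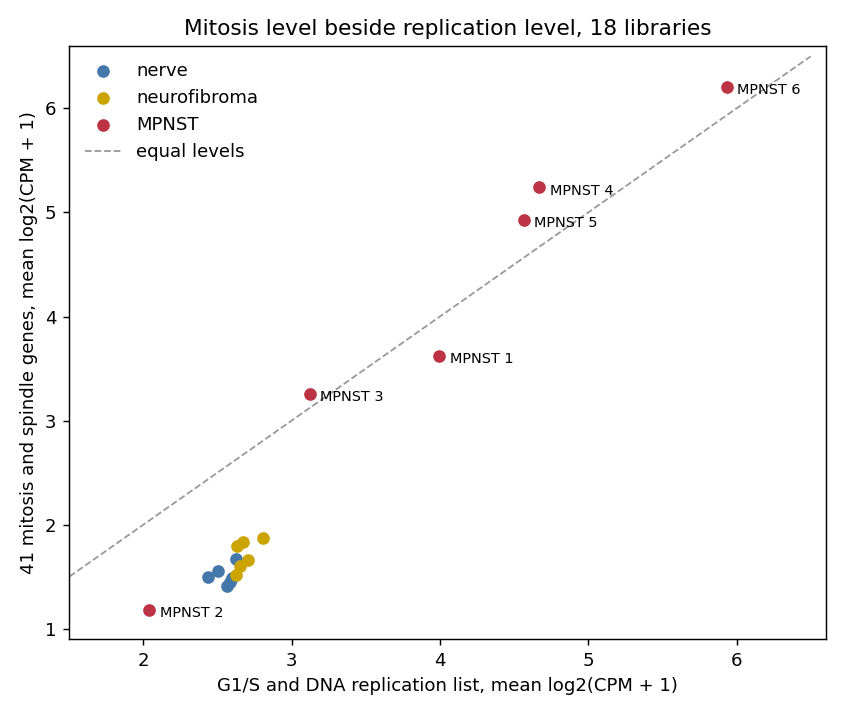
Mean log2(CPM + 1) of the 41 mitosis and spindle genes against that of 33 G1/S and DNA replication genes, 1 point per library; the dashed line of equal values is a guide for the eye. The 12 benign libraries form one cluster, and MPNST 2, in CPM without TMM scaling, lies below it. The other MPNST climb to the library labelled MPNST 6 at 5.93 and 6.21.

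Other genes of the mitotic machinery were read against these. All 8 further regulators of mitotic entry rose in MPNST against neurofibroma (median 2.60), among them the CDK1-activating phosphatase gene Cdc25b (2.07, SE 0.321) and the kinase gene Melk (4.18, SE 0.719). Of 26 other kinetochore genes 17 rose, among them the shugoshin gene Sgo1 (5.10, SE 0.677), and Zwint fell by 2.57 on the log2 scale (SE 0.378, adjusted p = 0.000378). Zwint stood at a mean of 603.8 CPM in neurofibroma, 705.8 in nerve and 97.5 in MPNST, beside the sensory neuron markers given above, whose part in it was not tested. Of 22 other spindle and midbody genes 17 rose, such as Ckap2 (3.64, SE 0.627) and Ckap2l (3.65, SE 0.631), and the microtubule polymerase gene Ckap5 fell by 1.49 (SE 0.462, adjusted p = 0.0217). Condensin and cohesin genes outside the 41 rose in 9 of 15, among them the cohesin subunit gene Stag1 (1.37, SE 0.163) and the acetyltransferase gene Esco2 (3.52, SE 0.519). In these lists too, some genes passed the filter only with MPNST libraries present. Neurofibroma against nerve tested 6 mitotic entry genes, 24 kinetochore genes, 20 spindle and midbody genes and 14 condensin and cohesin genes.

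The remaining checkpoint and anaphase-promoting complex genes changed least. Of 21, 5 rose, a share near the 25.3% of all genes, and the median was 0.37. The complex subunit Cdc16 rose by 0.92 (SE 0.146, adjusted p = 0.000584), and Trip13, which disassembles the checkpoint complex, by 3.41 (SE 0.582). Of 14 DREAM, MuvB, RB and E2F genes 8 rose (median 0.89), including the MuvB subunit Lin9 (2.21, SE 0.263) and E2f4 (1.34, SE 0.177). Neurofibroma against nerve tested 13 genes of this list. Among 14 CDK inhibitors, D cyclins and antiproliferative genes 7 rose and Cdkn2d, a CDK4 and CDK6 inhibitor, fell by 1.84 (SE 0.345, adjusted p = 0.00161). Without MPNST 2, 3 and 6, 5722 of all 17900 genes (32.0%) were called higher and 5525 lower. In that fit 4 of these 14 fell and 9 rose. The filter also passed more genes of some lists there. In the same fit the replication list had 30 of 33 genes higher, the mitotic entry list 8 of 8, and the condensin and cohesin list 9 of 16, with 0 lower in these 3. The kinetochore list had 19 of 26 higher and 1 lower, the spindle and midbody list 19 of 23 and 2, the checkpoint list 7 of 21 and 2, and the DREAM list 10 of 14 and 1.

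In neurofibroma against nerve, where 7.94% of all genes were called higher, 6 of the 14 CDK inhibitors, D cyclins and antiproliferative genes rose. They included the CDK4 and CDK6 inhibitor genes Cdkn2b (1.85, SE 0.193, adjusted p = 0.00103) and Cdkn2c (1.65, SE 0.207, adjusted p = 0.00166). The others were Cdkn2a (2.27) and the D cyclins that activate those kinases, Ccnd1 (2.46), Ccnd2 (1.43) and Ccnd3 (1.17). The Cdkn2a locus encodes Arf as well as a CDK4 and CDK6 inhibitor, which a count over the whole gene does not tell apart. Cdkn2a and the cyclins were named after their values were seen. Of 32 replication genes 3 rose, a share near that of all genes, among them Tyms (0.99, SE 0.234) and Mcm7 (0.56, SE 0.156). Checkpoint genes rose in 3 of 21, and the checkpoint protein gene Mad2l1 had a mean of 6.76 CPM in nerve and 20.2 in neurofibroma (1.58, SE 0.336, adjusted p = 0.0116). Fzr1, which encodes the anaphase-promoting complex activator CDH1, fell by 0.46 (SE 0.0926, adjusted p = 0.00933). The kinetochore gene Pmf1 rose by 0.53, the spindle and midbody genes Kif2a and Cit fell by 0.40 and 1.03, and the E2F partner gene Tfdp2 fell by 0.39 (adjusted p from 0.0239 to 0.0481). In 1 edgeR fit of all libraries, which called 2 of 17316 genes higher and 0 lower, 0 of the 17 genes called in these lists kept the call, and 11 had an unadjusted p below 0.05.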

How the data were processed

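The deposited values are Salmon's estimated counts per gene, not normalized. The submitters' processing notes name Salmon 1.4.0, FastQC, DESeq2 and GRCm39, and per the labels' protocols libraries were stranded and poly(A)-selected. The annotation release is not given in the sources used here, nor are Salmon's settings. Counts of near-identical or overlapping genes are therefore uncertain. Every column matched a sample by name (0 did not), 0 pairs of columns were identical, and replicate numbers only name libraries.

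Estimated counts were rounded to whole numbers. Each pair of groups was fitted on all genes by the quasi-likelihood test of edgeR 4.0.16 (R 4.3.3; glmQLFit and glmQLFTest after filterByExpr and TMM, two-sided). Called means a p below 0.05 after Benjamini-Hochberg adjustment over all genes. The fit was tested on simulated counts whose libraries shared a mean profile apart from the changed genes. Libraries with transcripts of other tissues or far from their group were not simulated, so that test does not cover them. CPM used library totals alone, so ratios of CPM differ from fitted changes, most in MPNST 2. The depth given in the report covers counting error only. Promoter sequences are RefSeq's.

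The members, lists, markers and left-out libraries were chosen with earlier results of these data known. Low, median and high values are given for the first 2 genes of each role and for genes not called where most were. From each other list, the 2 called genes with the smallest p and the leader of the minority direction are named, except in the fits without MPNST 2, 3 and 6. Lin54 was not found in the table. Not every marker list is reported here. Alternatives used DESeq2 1.42.0, limma 3.58.1 and the settings below.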

Additional observations from a re-analysis of the deposited data

Results flagged for a closer look

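A library far from the rest of its group was looked for in each of the 41 genes and 3 groups, as the gap to the nearest library over the group's range. For independent, normally distributed values, chance takes this ratio past the critical value of Dixon's test in about 1 of 20 groups. Here it was past that value in 24 of 123, on CPM that were not transformed. The 123 groups share libraries and are not independent, and 9 of the 24 fell in the library labelled MPNST 6. The 24 are thus a description and not a count to set against chance.

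The library labelled MPNST 6 stood above its group in 9 genes: Kif11 (0.782), Mki67 (0.732), Ube2c (0.726), Ndc80 (0.719), Cenpf (0.704), Foxm1 (0.698), Kif4 (0.680), Aurkb (0.671) and Nusap1 (0.666). Neurofibroma 6 did so in Pttg1 (0.967), Bub1 (0.894) and Bub1b (0.761). Neurofibroma 1 stood out in Kif4 (0.918; 2.94 CPM, next 1.05), Ttk (0.774; 2.74, next 1.18) and Foxm1 (0.720). In neurofibroma 2 it was Espl1 (0.626), and in neurofibroma 3 Dlgap5 (0.702).

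Nerve 3 was highest in Mki67 (0.679; 7.48 CPM, next 3.41), Ccnb1 (0.672) and Cdc20 (0.630). Nerve 4 was highest in Hmmr (0.700) and Prc1 (0.634), nerve 5 in Espl1 (0.647) and nerve 6 in Ndc80 (0.731).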

How the results depend on the processing

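Counts of genes called in MPNST stayed within 1.5 times the main count under every alternative run except 1. Against neurofibroma they ran from 33 (a filter of 1 CPM in 6 libraries, which left 35 genes to test) to 40, against nerve from 36 to 40, and leaving out 1 library gave 39 to 40 and 37 to 40. Without MPNST 2, 3 and 6, the filter of 1 CPM in 6 libraries left 25 genes to test against nerve, and 25 were called.

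In neurofibroma against nerve the count was 4 with DESeq2, 0 with 1 edgeR fit of all libraries (1 at an unadjusted p below 0.05), 0 at an adjusted p below 0.01 (9 unadjusted), 0 with glmTreat against a log2 change of 1 (1 unadjusted) and 2 without nerve 6 and neurofibroma 1 together. Leaving out 1 library gave 1 to 3: 2 without nerve 3 (Mki67 at 0.98) or nerve 6 (Smc2 at 0.66), and 3 without neurofibroma 5 (Cenpe at 1.02, Cenpf at 2.22). DESeq2 added Cenpe, Cenpf and Smc2. Of 621 values of the 25 genes whose changes in that comparison are not given, 63, in 15 genes, had the opposite sign, and 0 were called.

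Single genes kept their direction in MPNST in all 2073 values. Aurka, Bub1b and Smc4 were not called by glmTreat against neurofibroma (adjusted p = 0.0534, 0.0528 and 0.19), and Bub1b, Smc4 and, against nerve, Espl1 (0.0101) not at an adjusted p below 0.01. Scaling by library totals moved the median of all genes in MPNST against neurofibroma from 0.22 to 0.06, and the calls from 4176 higher and 2772 lower to 2653 and 2683. With limma-voom, another model with library weights, the median was -0.01 and the calls 4707 and 5040. No paired analysis was possible because the labels give no shared replicate numbers. Depth limits the benign values under 10 counts.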
